A study of Arabidopsis thaliana with 6 samples.

Results

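The metallothionein genes of *A. thaliana* were followed through seedlings of 3 genotypes. The 7 members are *MT1A* (AT1G07600), *MT1C* (AT1G07610), *MT2A* (AT3G09390), *MT2B* (AT5G02380), *MT3* (AT3G15353), *MT4A* (AT2G42000) and *MT4B* (AT2G23240), and they were chosen by identifier from 64621 annotated features, of which 33242 are genes on the 5 chromosomes. The family was selected because *MT1A* was far higher in *nerd-1* than in WT. Differences between *nerd-1* and WT are therefore given for the members as a description, and so are those between *nerd-1* and *nerd-1*+T, which use the same *nerd-1* libraries. Differences between *nerd-1*+T and WT were tested. That contrast was not used for the choice, though it shares the WT libraries with the one that was.

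Polyadenylated RNA came from whole 14-d-old seedlings of the Col-0 ecotype and was sequenced with a stranded kit as single reads of 125 bases. WT is Col-0 itself, *nerd-1* is the T-DNA line SALK_093814 in the *NERD* gene (AT2G16485), and *nerd-1*+T is the same mutant transformed to express NERD with a flag tag. Each genotype had 2 replicates, giving 6 libraries, and the promoter of the transgene is not given in the sources used here. Expression is given as FPKM (reads per kilobase of exon model for every 1000000 mapped), so the number of reads behind a value is unknown. *NERD* itself had 14.1 and 13.9 FPKM in WT, 7.59 and 7.45 in *nerd-1*, with 63.7 and 63.5 in *nerd-1*+T, so that the mutant kept signal over this gene and the complemented line was above WT.

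Metallothioneins are very small proteins rich in cysteine, whose thiol groups bind copper, zinc and, under exposure, cadmium. Plants have 4 types, told apart by how the cysteines are spaced. In *A. thaliana* the type 1 and type 2 genes *MT1A* and *MT2B* are known for expression in the vasculature, *MT2A* and *MT3* for expression in leaf mesophyll and root tips, and the type 4 genes for expression in seeds. Several of them are also known to be induced by copper or during leaf ageing.

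The coding sequences of the 5 members with signal are printed below, 5′ to 3′, with each in-frame cysteine codon (TGT or TGC) in capitals, to show the 3 spacings of cysteine and how alike *MT1A* and *MT1C* are. They were read from the RefSeq genome TAIR10.1 by joining the coding exons. *MT1A* lies at chr1:2338904-2339321 (minus strand), *MT1C* at chr1:2341447-2342148 (plus strand), *MT2A* at chr3:2889406-2890574 (minus strand), *MT2B* at chr5:506498-507244 (minus strand) and *MT3* at chr3:5180642-5181586 (minus strand).
MT1A: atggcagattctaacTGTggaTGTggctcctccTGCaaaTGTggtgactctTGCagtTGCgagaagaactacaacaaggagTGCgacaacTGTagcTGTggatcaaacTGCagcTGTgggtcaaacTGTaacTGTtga
MT1C: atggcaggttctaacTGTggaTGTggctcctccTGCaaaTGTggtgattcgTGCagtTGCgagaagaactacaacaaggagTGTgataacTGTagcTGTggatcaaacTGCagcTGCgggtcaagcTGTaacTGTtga
MT2A: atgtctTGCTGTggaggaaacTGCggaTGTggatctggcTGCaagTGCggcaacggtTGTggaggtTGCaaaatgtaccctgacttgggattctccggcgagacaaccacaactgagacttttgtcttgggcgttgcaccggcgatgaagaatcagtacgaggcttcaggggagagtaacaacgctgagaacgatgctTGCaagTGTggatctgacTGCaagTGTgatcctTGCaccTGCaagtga
MT2B: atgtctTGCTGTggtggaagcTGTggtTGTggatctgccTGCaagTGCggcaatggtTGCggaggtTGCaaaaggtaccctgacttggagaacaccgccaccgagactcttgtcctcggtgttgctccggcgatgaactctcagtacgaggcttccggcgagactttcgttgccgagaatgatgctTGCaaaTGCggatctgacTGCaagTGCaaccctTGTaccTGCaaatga
MT3: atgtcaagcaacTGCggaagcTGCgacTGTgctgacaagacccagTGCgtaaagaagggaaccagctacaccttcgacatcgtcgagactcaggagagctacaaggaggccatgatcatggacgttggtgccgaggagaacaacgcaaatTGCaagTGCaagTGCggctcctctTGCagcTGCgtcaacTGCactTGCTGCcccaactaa

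*MT1A* and *MT1C* each had 13 cysteine codons among 45 (28.9%), in an amino-terminal block of 6 and a carboxy-terminal block of 7 with only 7 other residues between them. *MT2A* and *MT2B* had 14 cysteines, in blocks of 8 and 6 that stood 43 and 39 residues apart. *MT3* had 12, in blocks of 4 and 8 that stood 34 residues apart. *MT4A* and *MT4B*, whose longest annotated coding sequences hold 18 and 17 cysteines, were the only members with histidine codons (3 and 2).

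*MT1A* and *MT1C* were identical at 131 of 138 coding bases and 43 of 45 residues, and *MT2A* and *MT2B* at 65 of 81 aligned residues. The longest stretch that the annotated transcripts of *MT1A* and *MT1C* shared without a mismatch was 39 bases, against reads of 125 bases. *MT1B* (AT5G56795), a further type 1 copy that is not among the 7, shared up to 86 bases with *MT1A*, and its annotated reading frame of 156 bases holds 0 cysteine codons. By longest shared stretch *MT1B* was thus closer to *MT1A*, but by identity over aligned coding bases *MT1C* was closer (94.9% against 79.5%). How reads were divided among these copies was not tested.

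*MT1A* had 13761 and 14739 FPKM in WT, 122376 and 130395 in *nerd-1*, with 30610 and 9330 in *nerd-1*+T. Both *nerd-1* libraries stood far above the other 4, while the *nerd-1*+T libraries lay on either side of WT. The mean of *nerd-1* (126386 ± 5670 FPKM, SD, n = 2) was 8.87 times that of WT (14250 ± 691, SD, n = 2), a difference of 3.15 ± 0.54 (SE) in log2(FPKM + 1).

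*MT2B*, the type 2 member of the vasculature, had 615 and 639 FPKM in WT, 1385 and 1337 in *nerd-1*, and the *nerd-1*+T libraries had 996 and 531. Its order over the libraries was that of *MT1A* with smaller distances, except that the *nerd-1* replicates changed places. Both *nerd-1* libraries were the highest, replicate 1 of *nerd-1*+T came next, and replicate 2 of *nerd-1*+T was the lowest. The mean of *nerd-1* was 2.17 times that of WT, a log2 difference of 1.12 ± 0.28 (SE, n = 2 per genotype).

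*MT3*, the type 3 gene of leaf mesophyll, had 7829 and 7784 FPKM in WT, 4310 and 4120 in *nerd-1*, with 4916 and 5858 in *nerd-1*+T. The 3 genotypes did not overlap, with WT highest and *nerd-1* lowest. The mean of WT was 1.85 times that of *nerd-1*, a log2 difference of -0.89 ± 0.12 (SE) for *nerd-1* against WT.

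*MT1C* had 516 and 478 FPKM in WT, 527 and 559 in *nerd-1*, with 389 and 375 in *nerd-1*+T. Despite its near identity with *MT1A*, its mean in *nerd-1* was only 1.09 times that of WT (log2 difference 0.13 ± 0.07, SE), a difference that was 0.24 with median scaling, where it passed the threshold (limma adjusted *p* = 0.0310), and -0.02 when scaled to the FPKM total. *MT2A* had 943 and 871 FPKM in WT, 850 and 841 in *nerd-1*, with 977 and 781 in *nerd-1*+T, whose libraries spanned all the others (log2 difference of *nerd-1* against WT -0.10 ± 0.12, SE). Within each of the closest pairs, *MT1A* with *MT1C* and *MT2A* with *MT2B*, *nerd-1* stood much further from WT for 1 gene than for the other. The family was chosen for the rise of *MT1A* in *nerd-1*, so this is a description.

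The seed-type genes had next to no signal. *MT4A* was listed at 0 in 5 libraries and at 0.0554 FPKM in replicate 1 of *nerd-1*. *MT4B* was listed at 0 in WT and *nerd-1*+T and at 0.178 and 0.182 FPKM in *nerd-1*. The 11 markers of seed tissue were seed storage and oleosin genes with *EM1* and *EM6*, for late embryogenesis abundant proteins. These markers summed to between 0.813 and 2.97 FPKM in a library, and none of them exceeded 0.963 FPKM.

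**Figure D1:**
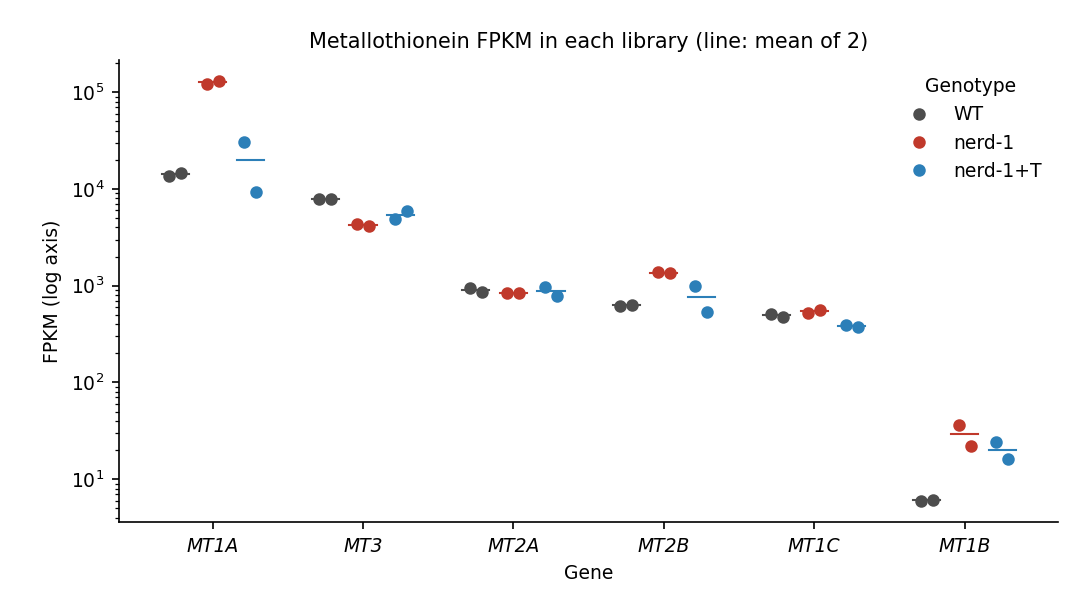
FPKM (log axis) of 5 metallothionein genes and of the paralogue *MT1B* in each library, with a point per library and a line at the mean of the 2 libraries of a genotype. The *MT1A* points of *nerd-1* sit at 122376 and 130395 FPKM and those of *nerd-1*+T at 30610 and 9330, on either side of WT; *MT4A* and *MT4B*, at or near 0, are not drawn.

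Of the 7 members, 5 reached 1 FPKM in at least 2 libraries and entered the test across 20249 features (limma on log2(FPKM + 1), Benjamini-Hochberg adjusted *p* under 0.05), while *MT4A* and *MT4B* did not. In *nerd-1* against WT, *MT1A* and *MT2B* were past the threshold on the higher side and *MT3* on the lower side, where 19.4% of all features tested were called higher and 36.3% lower. This count describes the contrast that the family was chosen on. The call of *MT2B* was lost when any 1 of the WT or *nerd-1* libraries was left out (log2 differences 1.09 to 1.14, limma adjusted *p* 0.0851 to 0.0987), whereas with only WT and *nerd-1* in the fit its SE was 0.0359 and its limma adjusted *p* 5.87e-05. Without the filter on low values, *MT1A* (limma adjusted *p* = 0.145), *MT2B* (0.0577) and *MT3* (0.0545) were all short of the threshold, and *MT4B*, at 0.178 and 0.182 FPKM in *nerd-1*, was the member called higher.

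In *nerd-1*+T against WT, 0 of the 5 members tested were called higher and 2 lower, against 13.2% and 39.8% of all features. *MT3* fell by 0.54 ± 0.12 on the log2 scale (SE, limma adjusted *p* = 0.0134), with both *nerd-1*+T libraries below both WT libraries, and *MT1C* fell by 0.38 ± 0.07 (SE, limma adjusted *p* = 0.00705), again without overlap. The median over all features tested in this contrast was -0.17. Without WT replicate 1 both calls were lost (limma adjusted *p* = 0.0831 for *MT3* and 0.0588 for *MT1C*), and that of *MT3* also without WT replicate 2 (limma adjusted *p* = 0.0832). When each library was scaled so that the median difference was 0, *MT1C* had a log2 difference of -0.21 with a limma adjusted *p* of 0.0551. *MT3* then had -0.37 with a limma adjusted *p* of 0.0487. The call of *MT3* was also lost without the filter on low values (limma adjusted *p* = 0.175). It was lost too with only these 2 genotypes in the fit (limma adjusted *p* = 0.0532), whereas *MT1C* kept its call in both.

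The other 3 members did not pass the test in *nerd-1*+T against WT. The log2 difference was 0.25 for *MT1A* (95% interval -1.11 to 1.61, limma adjusted *p* = 0.719), 0.21 for *MT2B* (-0.50 to 0.92, limma adjusted *p* = 0.551) and -0.05 for *MT2A* (-0.35 to 0.24, limma adjusted *p* = 0.720). The complemented replicates of *MT1A* and *MT2B* disagreed. For *MT1A* they differed 3.28-fold, a gap larger than that of 99.5% of the features tested in this genotype, and for *MT2B* 1.88-fold, larger than that of 98.5%. The WT and *nerd-1* replicates of *MT1A* differed only 1.07-fold each.

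Each complemented library was also compared with WT on its own, as values without a test, since 1 library has no spread of its own. With replicate 2 as the only *nerd-1*+T library, the log2 difference from WT was -0.61 for *MT1A*, -0.24 for *MT2B* and -0.21 for *MT2A*. With replicate 1 as the only one, it was 1.104 for *MT1A*, 0.67 for *MT2B* and 0.11 for *MT2A*. The direction of *MT1A*, *MT2B* and *MT2A* in the complemented line against WT thus depended on which of its libraries was used. The median gap between replicates over all features tested was 0.13 in *nerd-1*+T, 0.06 in WT and 0.05 in *nerd-1*, on the log2 scale.

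In *nerd-1* against *nerd-1*+T, *MT1A* (log2 difference 2.90 ± 0.54, SE) and *MT1C* (0.51 ± 0.07) were past the threshold on the higher side and 0 members on the lower side, where 24% and 14% of all features were called. *MT2B* (0.90 ± 0.28), *MT2A* (-0.05 ± 0.12) and *MT3* (-0.35 ± 0.12) were not. These calls are a description, since the contrast uses the *nerd-1* libraries in which the rise of *MT1A* led to the choice. Leaving out *nerd-1* replicate 1 or 2 ended the call of *MT1A* (limma adjusted *p* = 0.0812 and 0.0888), and leaving out replicate 2 that of *MT1C* (0.0591). With replicate 2 or replicate 1 as the only *nerd-1*+T library, which leaves that group no spread, the log2 difference was 1.36 or 0.45 for *MT2B* and -0.48 or -0.22 for *MT3*.

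**Figure D2:**
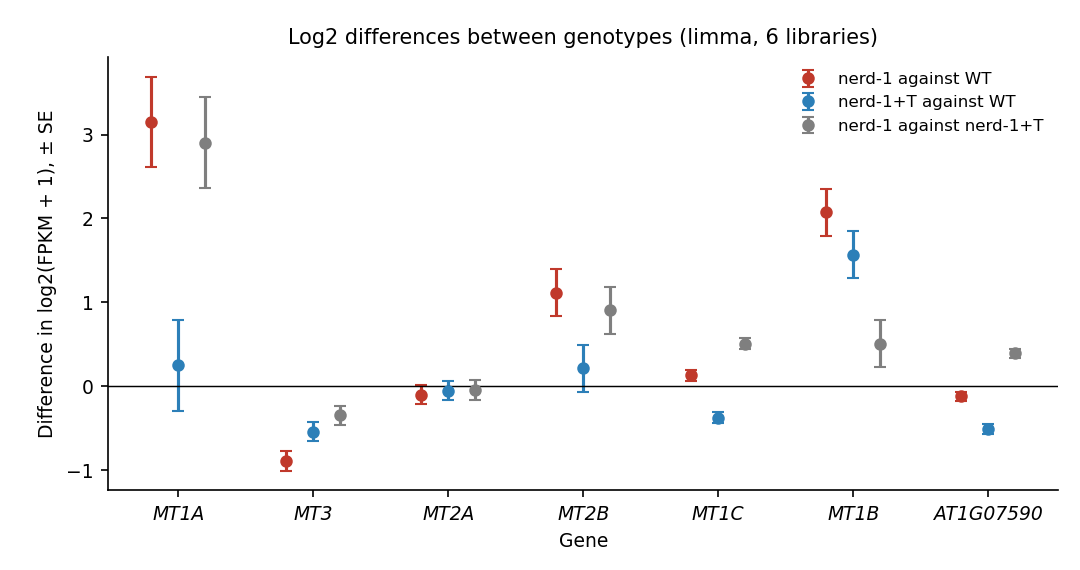
Difference in log2(FPKM + 1) between genotypes for 5 metallothionein genes, the paralogue *MT1B* and AT1G07590, with points at the limma estimate over 6 libraries and bars of 1 SE. *MT1A* stands at 3.15 in *nerd-1* against WT and at 0.25 in *nerd-1*+T against WT, while *MT3* is below 0 in all 3 contrasts.

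The position of *MT1A* bears on how its FPKM can be read. In TAIR10.1 its model consists of 2 exons of 56 and 82 bases that are coding throughout, 138 bases in all. Both exons lie inside exons of AT1G07590, a gene for a tetratricopeptide repeat protein on the same strand (chr1:2336477-2339391, 2407 bases of exon), and they share the intron between them, so that every *MT1A* exon base is also an exon base of AT1G07590. The coding part of AT1G07590 begins further downstream and does not overlap *MT1A*. Cufflinks divides reads from such shared exons between the models by likelihood, and the gene models that the authors used were not used here.

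AT1G07590 had 572 and 561 FPKM in WT, 514 and 528 in *nerd-1*, with 386 and 409 in *nerd-1*+T. It was not past the threshold in *nerd-1* against WT (log2 difference -0.12, limma adjusted *p* = 0.120) and fell by 0.51 in *nerd-1*+T (limma adjusted *p* = 0.00163). Multiplied by exon length in TAIR10.1 and summed over both models, FPKM gave 3276 and 3384 in WT, 18125 and 19265 in *nerd-1*, with 5152 and 2271 in *nerd-1*+T (FPKM times kilobases). The mean over this locus was 5.61 times as high in *nerd-1* as in WT and 1.11 times in *nerd-1*+T. This sum consists mostly of *MT1A* in *nerd-1*, and the length behind the deposited *MT1A* value is not known, so that the part of the split between the models was not tested.

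The few very short models tested had widely scattered values. Of the 13 tested genes with at most 150 bases of annotated exon, *MT1A* included, 4 were called higher and 3 lower in *nerd-1* against WT. Of all features, 19.4% and 36.3% were called. The median log2 difference of the 13 was 0.99, with 5th and 95th percentiles of -1.101 and 4.82, which for 13 genes lie near the extremes. Of the 19049 tested genes with more than 600 bases, 3723 were called higher and 6968 lower. Their percentiles were -0.76 and 0.73 and their median -0.10. The part of model length in the FPKM of *MT1A* was not tested.

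**Figure D3:**
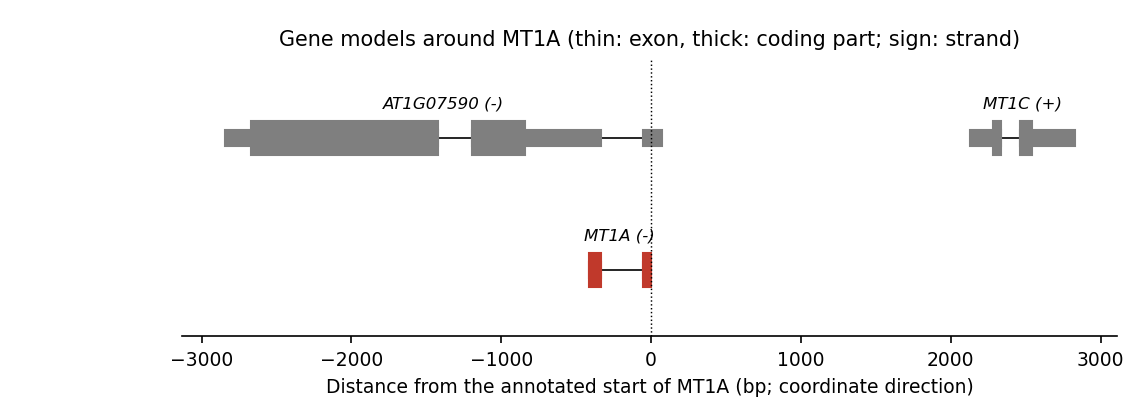
Gene models around *MT1A* in TAIR10.1, drawn to scale against the distance in bp from the annotated start of *MT1A* (thin boxes, exons; thick boxes, coding parts; lines, introns; the sign gives the strand). Both *MT1A* exons (56 and 82 bases) fall within exons of AT1G07590, and *MT1C* lies 2125 bp away on the other strand.

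Around the other members, overlap was small. *MT1C* stood 2125 bp from *MT1A* on the opposite strand and 49 bp from AT1G07615, which had between 3.76 and 4.60 FPKM in the 6 libraries. *MT3* overlapped *COX17-1* (AT3G15352), a gene for a copper chaperone of cytochrome *c* oxidase on the opposite strand, by 24 bp. *COX17-1* had 8.24 and 7.85 FPKM in WT, 11.3 and 10.04 in *nerd-1*, with 8.70 and 5.85 in *nerd-1*+T, levels far below those of *MT3*. It did not pass the test in *nerd-1* against WT (log2 difference 0.37, limma adjusted *p* = 0.114) or in *nerd-1*+T against WT (-0.15, limma adjusted *p* = 0.483). *UBC25*, on the far side of *MT3*, was not past the threshold in either contrast with WT (log2 difference 0.16, limma adjusted *p* = 0.0598, and 0.08, limma adjusted *p* = 0.290).

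*MT2A* and *MT2B* had no overlapping neighbour. AT3G09385 and *PLL3*, beside *MT2A*, stayed below 0.12 FPKM in all 6 libraries, and AT5G02385, beside *MT2B*, was listed at 0 in all of them. AT5G02370, on the other side of *MT2B*, had between 3.67 and 4.39 FPKM and did not pass the test in either contrast with WT (limma adjusted *p* = 0.110 and 0.285). AT2G42005, AT2G23230 and *UGT84B2*, beside the seed-type genes, were at or near 0. AT2G41990, beside *MT4A*, had 1.78 and 2.49 FPKM in WT, 3.93 and 3.51 in *nerd-1*, with 6.50 and 7.77 in *nerd-1*+T, and rose in *nerd-1* (log2 difference 0.60, limma adjusted *p* = 0.0170) and in *nerd-1*+T (1.38, limma adjusted *p* = 0.00129).

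*MT1B*, the type 1 copy outside the list, had 5.96 and 6.12 FPKM in WT, 36.7 and 22.3 in *nerd-1*, with 24.5 and 16.1 in *nerd-1*+T. All 4 libraries with the *nerd-1* mutation were above both WT libraries. It rose in *nerd-1* by 2.07 ± 0.28 (SE, limma adjusted *p* = 0.00327) and in *nerd-1*+T by 1.57 ± 0.28 (limma adjusted *p* = 0.00738), at levels far below those of *MT1A*. Since this gene was added after its values had been seen, they are a description. How far reads of *MT1A* contributed to its value was not tested.

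The order of the members by FPKM, a unit per kilobase, was the same in both WT libraries: *MT1A*, *MT3*, *MT2A*, *MT2B*, *MT1C*, with no overlap between neighbours. In *nerd-1* the order was *MT1A*, *MT3*, *MT2B*, *MT2A*, *MT1C*, again with no overlap. In *nerd-1*+T the ranges of *MT2A* (781 to 977 FPKM) and *MT2B* (531 to 996 FPKM) overlapped. The ratio of *MT1A* to *MT3* was 1.76 and 1.89 in WT, 28.4 and 31.7 in *nerd-1*, with 6.23 and 1.59 in *nerd-1*+T. The ratio of *MT2B* to *MT2A* was 0.652 and 0.734 in WT, 1.63 and 1.59 in *nerd-1*, with 1.02 and 0.679 in *nerd-1*+T.

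*MT1A* was the feature with the highest FPKM in 5 of the 6 libraries, and the third in replicate 2 of *nerd-1*+T. The other features among the 3 highest by mean in a genotype were *RBCS1A*, *LHCB1.3*, *LHCB3* and the transposable element AT2TE32080. *RBCS1A*, for a Rubisco small subunit, had between 9496 and 12238 FPKM in all libraries. *LHCB1.3*, for a light-harvesting protein, was listed at 0 in both *nerd-1* libraries and in replicate 2 of *nerd-1*+T and at 11623 to 13469 FPKM in the others. *LHCB3* had 860 and 870 FPKM in WT but 6814 and 7077 in *nerd-1*, with 5231 and 3639 in *nerd-1*+T, and AT2TE32080 ranged from 1148 to 21666, so that abundance ranks at the top of these tables also moved through entries other than *MT1A*.

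The 7 members together held 2.74% and 2.84% of the FPKM total in WT, 13.6% and 14.2% in *nerd-1*, with 4.42% and 1.99% in *nerd-1*+T. *MT1A* alone held 1.59% and 1.71% in WT, 12.9% and 13.5% in *nerd-1*, with 3.57% and 1.101% in *nerd-1*+T. The other 6 members summed to 9904 and 9772 FPKM in WT, 7071 and 6857 in *nerd-1*, with 7278 and 7545 in *nerd-1*+T, so that their sum was lower in both lines than in WT, with *MT3* as its largest part. Without the members the FPKM totals were between 819460 and 840443 in the 6 libraries, whereas with them they reached 951758 and 966119 in *nerd-1* against 847355 to 864108 in the other 4.

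Because FPKM divides by length, a share of the FPKM total gives weight to short models. Values of genes with a TAIR10.1 model were also multiplied by annotated exon length. Entries without such a model, among them the transposable elements, were left out of this sum, unlike in the FPKM total. The 7 members then held 0.676% of the sum in both WT libraries, 1.69% and 1.76% in those of *nerd-1*, and 0.733% and 0.515% in those of *nerd-1*+T. On this scale *MT3*, at 0.402% and 0.398%, was the largest member in WT, and *MT1A*, at 1.32% and 1.40%, the largest in *nerd-1*. RNA of whole seedlings does not tell fewer cells of a type from less RNA per cell.

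**Figure D4:**
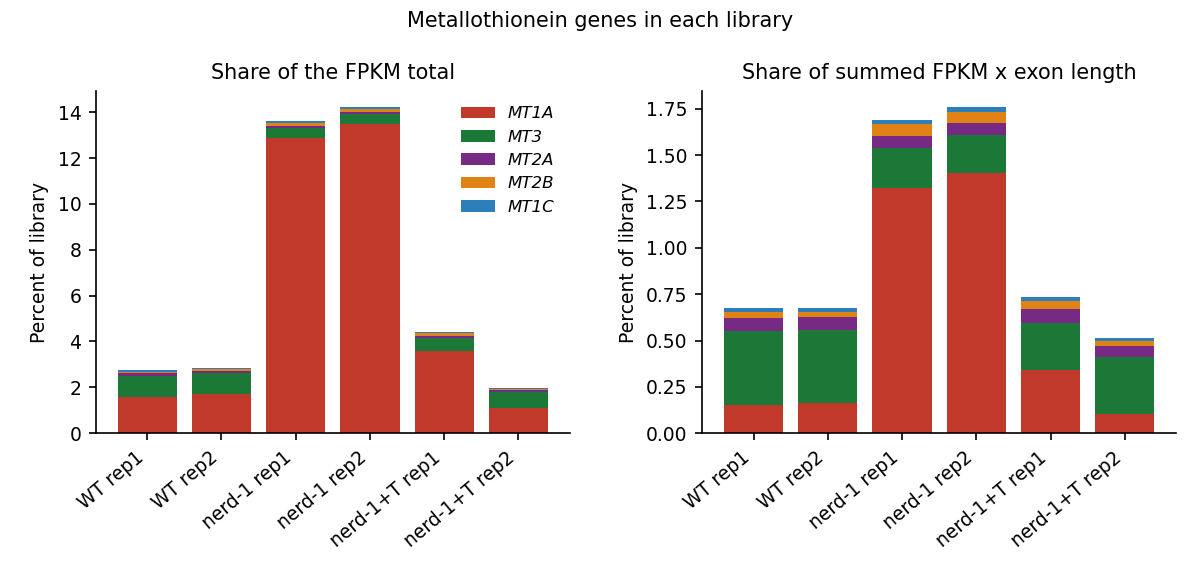
Share of each library held by the 5 metallothionein genes with signal, as percent of the FPKM total (left) and of the sum of FPKM times annotated exon length (right), with stacked bars starting at 0. The sum on the right holds only genes with a TAIR10.1 model. On the left the *nerd-1* bars reach 13.6% and 14.2% and consist almost wholly of *MT1A*, and on the right they reach 1.69% and 1.76% and the WT bars consist mostly of *MT3*.

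Among 11776 tested features with a mean of at least 10 FPKM, 5 had profiles closest to that of *MT1A* by Euclidean distance over the 6 libraries, on log2(FPKM + 1) centred on the WT mean. They were the non-coding RNA AT1G79075 (distance 0.745), the transposable element AT4TE01030 (1.203), *SAMDC* (AT3G02470, 1.22), for a decarboxylase of polyamine synthesis, *PBP1* (AT5G54490, 1.25), for a calcium-binding protein that binds PINOID, and AT3G56020 (1.31). AT1G79075 had 7.19 and 7.79 FPKM in WT, 53.2 and 53.9 in *nerd-1*, with 13.5 and 4.13 in *nerd-1*+T. *SAMDC* had 80.5 and 48.5 FPKM in WT, 422 and 453 in *nerd-1*, with 245 and 54.7 in *nerd-1*+T. Since they were picked for this pattern, their values are a description. In all 5, replicate 1 of *nerd-1*+T was above replicate 2, as for *MT1A*.

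Genes of metal handling, thiol supply and ageing were then counted from lists of copper, zinc and cadmium, cysteine and glutathione, and senescence genes. The median log2 difference over all features tested was -0.11 in *nerd-1* against WT, where 19.4% were called higher and 36.3% lower, and -0.17 in *nerd-1*+T against WT, where 13.2% and 39.8% were called. Of the 31 copper genes 30 were tested, of which 8 (26.7%) rose and 11 (36.7%) fell in *nerd-1* (median -0.03) and 7 (23.3%) rose and 17 (56.7%) fell in *nerd-1*+T (median -0.36). *CSD1*, the cytosolic copper/zinc superoxide dismutase, rose from a mean of 12.9 FPKM in WT to 22.6 in *nerd-1* (limma adjusted *p* = 0.00683) and 58.7 in *nerd-1*+T (limma adjusted *p* = 0.000323), and *PAA2*, a copper pump of the thylakoid, rose from 29.5 to 48.7 and 59.0 (limma adjusted *p* = 0.000892 and 0.000238). *COX17-2*, a second copper chaperone of cytochrome *c* oxidase, and *COPT5*, an intracellular copper transporter, fell in *nerd-1* by 0.76 and 0.61 (limma adjusted *p* = 0.000716 and 0.0212).

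In *nerd-1*+T the largest falls of the copper list were those of *CITF1* and *FRO5*, genes known to be induced by copper shortage. *CITF1*, a transcription factor of copper uptake, fell from 14.9 FPKM in WT to 2.76 (log2 difference -2.09, limma adjusted *p* = 0.000148), and *FRO5*, a copper reductase of the root surface, fell from 3.55 to 0.170 (-1.96, limma adjusted *p* = 8.57e-05). Their *nerd-1* values of 15.3 and 3.67 FPKM did not pass the test against WT (log2 differences 0.03 and 0.04). *CSD2*, the plastid superoxide dismutase, rose from 18.0 to 61.9 FPKM in *nerd-1*+T (1.73, limma adjusted *p* = 0.00014) but fell to 11.9 in *nerd-1* (-0.56, limma adjusted *p* = 0.0042).

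Of the 29 zinc and cadmium genes 23 were tested, of which 7 (30.4%) rose and 7 (30.4%) fell in *nerd-1* (median -0.12), beside 19.4% and 36.3% of all features, and 3 (13%) rose and 7 (30.4%) fell in *nerd-1*+T (median -0.13), beside 13.2% and 39.8%. *NAS1* and *NAS4*, for nicotianamine synthases, fell in *nerd-1* from 80.8 to 34.7 FPKM and from 28.4 to 14.3 (log2 differences -1.197 and -0.94, limma adjusted *p* = 0.000571 and 0.000381). *ZIF1*, for a vacuolar transporter of nicotianamine, rose in *nerd-1* from 17.4 to 31.8 FPKM (0.83, limma adjusted *p* = 0.000976) and was at 16.9 in *nerd-1*+T (-0.04, limma adjusted *p* = 0.654). *ZIP6*, of the zinc transporter family, rose by 0.62 (limma adjusted *p* = 0.00304). In *nerd-1*+T, *NAS4* fell by 1.52 (limma adjusted *p* = 7.64e-05) and *HMA2*, a zinc and cadmium pump, by 1.49 (limma adjusted *p* = 0.000312), while *NAS2* rose by 0.80 and *PCR2*, of zinc efflux, by 0.35 (limma adjusted *p* = 0.00496 and 0.0182).

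Of the 22 cysteine and glutathione genes 21 were tested, of which 3 (14.3%) rose and 7 (33.3%) fell in *nerd-1* (median -0.05), shares near those of all features (19.4% and 36.3%), and 1 (4.8%) rose and 9 (42.9%) fell in *nerd-1*+T (median -0.10), beside 13.2% and 39.8%. *PCS1*, the phytochelatin synthase that makes metal-binding peptides from glutathione, rose from 33.0 FPKM in WT to 46.8 in *nerd-1* and to 50.7 in *nerd-1*+T (log2 differences 0.49 and 0.61, limma adjusted *p* = 0.00115 and 0.00047). *ABCC3*, for a vacuolar transporter, rose in *nerd-1* by 0.61 (limma adjusted *p* = 0.00322). *SERAT2;1*, for a serine acetyltransferase of cysteine synthesis, fell by 0.57 in *nerd-1* and by 0.56 in *nerd-1*+T (limma adjusted *p* = 0.00246 and 0.00223). *LSU2*, a gene of the low-sulfur response, fell by 0.56 and 1.78 (limma adjusted *p* = 0.00358 and 0.000117), and *LSU1*, of the same family, fell by 1.74 in *nerd-1*+T (limma adjusted *p* = 0.00156).

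Of the 14 senescence genes 12 were tested. Those not tested were *SAG12*, listed at 0 in every library, and *SWEET15*, at most 0.238 FPKM. Of the 12, 9 (75%) rose and 1 (8.3%) fell in *nerd-1* (median 0.52), beside 19.4% and 36.3% of all features. In *nerd-1*+T, 7 (58.3%) rose and 3 (25%) fell (median 0.40), beside 13.2% and 39.8%. *ASN1*, an asparagine synthetase gene of dark and sugar-starved leaves, rose from 42.7 FPKM in WT to 229.8 in *nerd-1* and to 339 in *nerd-1*+T (log2 differences 2.40 and 2.96, limma adjusted *p* = 0.000139 and 4.52e-05). *SAG21*, for a late embryogenesis abundant protein, rose from 152 to 415 and 542 FPKM (1.44 and 1.83, limma adjusted *p* = 0.000273 and 9.61e-05). *ERD1*, for a subunit of a chloroplast protease, fell by 0.15 in *nerd-1* and rose by 0.21 in *nerd-1*+T (limma adjusted *p* = 0.0423 and 0.0145). The transcription factor genes *NAP* and *WRKY53* fell in *nerd-1*+T by 0.91 and 0.88 (limma adjusted *p* = 0.00288 and 0.000898), and *WRKY53* rose in *nerd-1* by 0.50 (limma adjusted *p* = 0.00531).

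With 1 WT or *nerd-1* library left out, the calls in *nerd-1* against WT fell over all features, from 11275 to between 5710 and 6575, and in the lists likewise. Leaving out 1 library left 10 copper genes past the threshold without WT replicate 1, 9 without WT replicate 2 or *nerd-1* replicate 1, and 8 without *nerd-1* replicate 2, of 19 with all libraries. Of 14 zinc and cadmium genes, 11 were left without WT replicate 1, 10 without *nerd-1* replicate 1, and 9 without WT replicate 2 or *nerd-1* replicate 2. Of 10 cysteine and glutathione genes 4 were left, and of 10 senescence genes 6, without any 1 of the WT or *nerd-1* libraries.

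**Figure D5:**
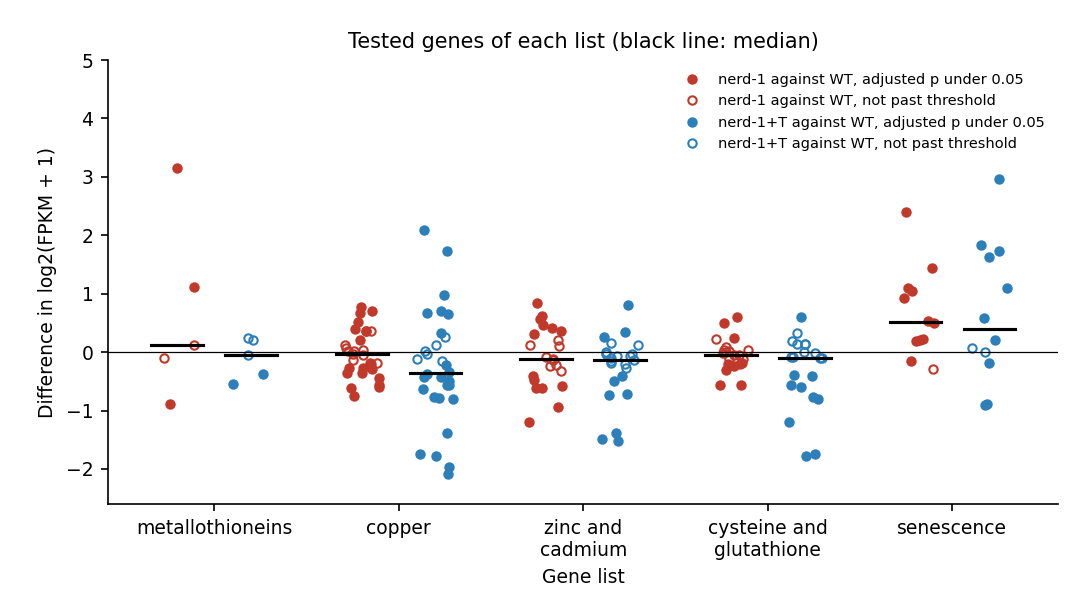
Difference in log2(FPKM + 1) of each tested metallothionein gene and of each tested gene of 4 lists, for *nerd-1* (red) and *nerd-1*+T (blue) against WT (filled, limma adjusted *p* under 0.05; open, not past the threshold; black lines, medians). The senescence medians lie at 0.52 and 0.40, and *MT1A* in *nerd-1*, at 3.15, is the highest point drawn.

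The organ makeup of the samples was read from marker genes. All 15 root genes were above 0 in every library and summed to 146 and 150 FPKM in WT, 175 and 151 in *nerd-1*, with 172 and 140 in *nerd-1*+T. Both *nerd-1* sums lay above both WT sums, though the nearest were 150.5 and 150.2. Those of *nerd-1*+T overlapped both other genotypes. The 11 photosynthesis genes taken as shoot markers summed to 40456 and 41259 FPKM in WT, 36201 and 36895 in *nerd-1*, with 45753 and 31060 in *nerd-1*+T. *LHCB1.3*, at 0 in the 3 libraries named above, is 1 of them, and without it the other 10 summed to 28693 and 29636 FPKM in WT, below the 36201 and 36895 of *nerd-1*, with 32284 and 31060 in *nerd-1*+T. Of the 11 genes, 5 (45.5%) rose and 3 (27.3%) fell in *nerd-1* (median 0.30), beside 19.4% and 36.3% of all features. In *nerd-1*+T, 3 (27.3%) rose and 3 (27.3%) fell (median 0.06), beside 13.2% and 39.8%. Of the root genes 13 were tested, of which 2 (15.4%) rose and 3 (23.1%) fell in *nerd-1* (median -0.03). In *nerd-1*+T, 1 (7.7%) of these rose and 4 (30.8%) fell (median -0.05). The part of organ or tissue proportions in the *MT1A* difference was not tested.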

How the data were processed

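Polyadenylated RNA of 14-d-old seedlings of 3 genotypes, with 2 replicates each, had been sequenced as single reads of 125 bases. As the Methods state, the authors removed organellar and ribosomal reads with Bowtie2 2.3.4, mapped the rest to TAIR10 with TopHat2 2.0.7 and estimated FPKM with Cufflinks 2.2.1. The deposited FPKM hold no read counts. The Methods give only a range of reads per library, so the depth of each library is unknown. Precision was judged from the spread between replicates. Nothing in the labels says that the replicates were separate cultures, and *p*-values measure only the spread between these samples. Each library has 64625 entries, of which 4 without an identifier, holding at most 0.12 FPKM, were left out.

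Log2(FPKM + 1) of the 20249 features that reached 1 FPKM in 2 or more libraries was compared in 1 fit over 6 libraries with limma 3.58.1 in R 4.3.3 (mean-variance trend, no block), with Benjamini-Hochberg adjustment and a threshold of 0.05. The pseudocount understates changes of low features. For 2 libraries against 2, an exact permutation test cannot go below a two-sided *p* of 0.333. Tables were handled in Python 3.11.15 with pandas 2.3.3, numpy 2.4.6 and matplotlib 3.10.9.

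Members and lists were chosen with earlier results of these data known. Named were all members and their annotated neighbours, *NERD*, up to 2 genes with the largest rise and 2 with the largest fall past the threshold per list and contrast with WT, the 5 features most like *MT1A* and the 3 highest features per genotype. *MT1B* was added after its values had been seen. Gene models and sequences are those of TAIR10.1, which holds 32780 of the 33242 genes, and of 70 genes with TAIR10 coordinates in the study 69 were found there, all with the same start and end. Alternatives were the pseudocount, the filter, the scaling, the denominator of the shares, the replicate block, the samples in the fit, the variance model and leaving out each library. Weighting shares by exon length, over genes with a TAIR10.1 model only, and joining *MT1A* with AT1G07590 were added after seeing the data.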

Additional observations from a re-analysis of the deposited data

How the results depend on the processing

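Without a filter on low values, 1 member (*MT4B*, near 0 FPKM) was called higher and 0 lower in *nerd-1* against WT, where *MT1A* lost its call, and 1 lower in *nerd-1*+T against WT. In that last contrast 1 was also called lower with median scaling and with only the 2 genotypes compared. In *nerd-1* against *nerd-1*+T, 1 was called lower when scaled to the FPKM total, with median scaling and without the mean-variance trend. With median scaling, 6 cysteine and glutathione genes were called for *nerd-1* and 16 for *nerd-1*+T. The share of the members was 2.99% in WT and 14.4% in *nerd-1* over genes only, 2.93% and 14.4% without the 5 highest other features, and 0.676%, 1.72% and 0.624% in *nerd-1*+T weighted by exon length. The causes were not tested.

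Leaving out 1 library gave 1 to 2 members higher in *nerd-1* against WT, 0 to 2 higher and 0 to 5 lower in *nerd-1*+T against WT, and 0 to 3 higher and 0 to 2 lower in *nerd-1* against *nerd-1*+T. It gave 8 to 22 copper, 9 to 16 zinc and cadmium, 4 to 13 cysteine and glutathione and 6 to 12 senescence genes in *nerd-1* against WT. Without *nerd-1*+T replicate 1, *MT1A* (-0.61) and *MT2B* (-0.24) reversed against WT, and without replicate 2 they stood at 1.104 and 0.67; with 1 library left in that arm it is assumed to vary like the other groups, and 57.7% and 62.5% of all features were then called. *MT2A* in *nerd-1*+T against WT stood at -0.05 with all libraries and at 0.11 without *nerd-1*+T replicate 2. Over all features, median scaling moved the median log2 difference from -0.11 to 0.00 (*nerd-1* against WT) and from -0.17 to -0.01 (*nerd-1*+T against WT). With the replicate block, 2 members were called higher and 1 lower in *nerd-1* against WT and 0 and 2 in *nerd-1*+T, and no call of a member changed. The replicate numbers are shared names only, since same-numbered deviations correlated at 0.05, 0.09 and -0.00. Since the depth of each library is unknown, the precision of single values rests on 2 replicates.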
